A study of Rattus norvegicus with 12 samples.

Results

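The renin-angiotensin system of the rat kidney was described through 8 of its genes, angiotensinogen (Agt), angiotensin-converting enzyme (Ace), the type 1 angiotensin receptors Agtr1a and Agtr1b, the receptor-associated protein Agtrap, the angiotensin-degrading peptidases Enpep and Mme, and the prorenin receptor Atp6ap2. Every probe set that the array annotation assigned to 1 of these symbols alone was taken, which gave 13 probe sets of the 31042 non-control probe sets on the array. RNA pools of 4 rat strains were compared. FHH.Pkhd1, in full FHH.PCK-(D9Rat35-D9Rat70)/Mcwi, is a congenic strain on the inbred Fawn Hooded Hypertensive background that carries a segment of chromosome 9 from the PCK rat, where Pkhd1 lies, the gene mutated in recessive polycystic kidney disease. FHH is the background strain without that segment, prone to hypertension and glomerular damage. PCK is a Sprague Dawley-derived strain with a mutation of Pkhd1, and SD is the outbred Sprague Dawley stock. All rats were 30 days old and ate the same 5LOD chow, and RNA from both kidneys of 6 animals per strain was combined into 1 pool and hybridized to 3 arrays. Arrays of the same strain thus repeat 1 RNA pool, so each standard deviation (after a ± sign beside a level), each standard error (SE, after a ± sign beside a difference) and each p-value below reflects how far repeated arrays scatter, and none reflects the scatter of animals. Blood pressure is not analysed here.

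In the renin-angiotensin cascade, angiotensinogen is cut to angiotensin I, and angiotensin-converting enzyme turns that into angiotensin II, which acts on type 1 receptors to constrict vessels and to raise sodium reabsorption. The kidney makes its own angiotensinogen, mainly in the proximal tubule, whose brush border also carries the peptidases that break angiotensins down. Rodents have 2 type 1 receptor genes, of which Agtr1a is the main form in the kidney and Agtr1b is known best from the adrenal gland and pituitary.

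Values are log2 probe set signals as deposited, and a probe set was taken as detected in a pool when its mean there reached 5.75, the 40th percentile of all values. Array medians ran from 6.41 to 6.46, and the correlation between arrays was 0.9973 to 0.9985 within pools and 0.9862 to 0.9959 between pools. The 15 proximal tubule markers and the 9 podocyte markers with a probe set were detected in all pools. Adrenal markers differed between the pools, with a mean log2 signal over 6 genes of 6.66 to 6.83 on FHH.Pkhd1 arrays, 6.02 to 6.19 on FHH arrays, 5.15 to 5.23 on PCK arrays and 5.12 to 5.20 on SD arrays. Of the 6, 4 were above the detection level in FHH.Pkhd1, 4 in FHH, 2 in PCK and 3 in SD. The 7 fat markers had a mean of 7.33 to 7.41 on FHH.Pkhd1 arrays, 7.44 to 7.47 on FHH arrays, 6.75 to 6.76 on PCK arrays and 6.84 to 6.89 on SD arrays. RNA integrity was read through the excess of 3' over 5' signal of beta-actin, which is larger where RNA is less intact. This excess was 1.2 ± 0.02 in FHH.Pkhd1, 1.39 ± 0.02 in FHH, 1.33 ± 0.02 in PCK and 1.10 ± 0.03 in SD (log2, n = 3 arrays of 1 pool). The mean signal of the poly-A spike-in control probe sets differed between pools too. It was 10.04 ± 0.11 in FHH.Pkhd1, 11.14 ± 0.02 in FHH, 10.86 ± 0.08 in PCK and 10.50 ± 0.08 in SD.

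Of the 13 probe sets, 12 reached the detection level in at least 1 pool and were tested with limma among 19359 probe sets. The thirteenth, a second probe set of Ace, stayed below it in every pool. Calls needed both a Benjamini-Hochberg adjusted p under 0.05 and a change of 1.5-fold or more. In FHH minus SD, 2 of the 12 were called, both lower and both of Agtrap, where 3.72% of all tested probe sets were called. In FHH.Pkhd1 minus PCK, 5 were called, 4 lower and 1 higher, against 6.91% of all. In PCK minus SD, 1 was called, of Ace and higher, against 3.49% of all. Ace passed the filter through PCK alone, so its calls in these counts follow from the filter in part. In FHH.Pkhd1 minus FHH, limma called none of the 12, with 9 at an unadjusted p under 0.05, and 1.9% of all were called. The median difference of the 12 was -0.13, 0.02, -0.17 and 0.05 in these comparisons, where that of all tested probe sets was 0.03, 0.06, -0.01 and 0.02. The adjusted p alone separates little among arrays of pools, since at any fold 34.9% of all tested probe sets passed 0.05 in FHH minus SD, 21.0% for FHH.Pkhd1 minus FHH, 51.7% in FHH.Pkhd1 minus PCK, 32.5% in PCK minus SD and 30.1% for the interaction described further down. The array plot shows the values behind these counts for each probe set.

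**Figure D1:**
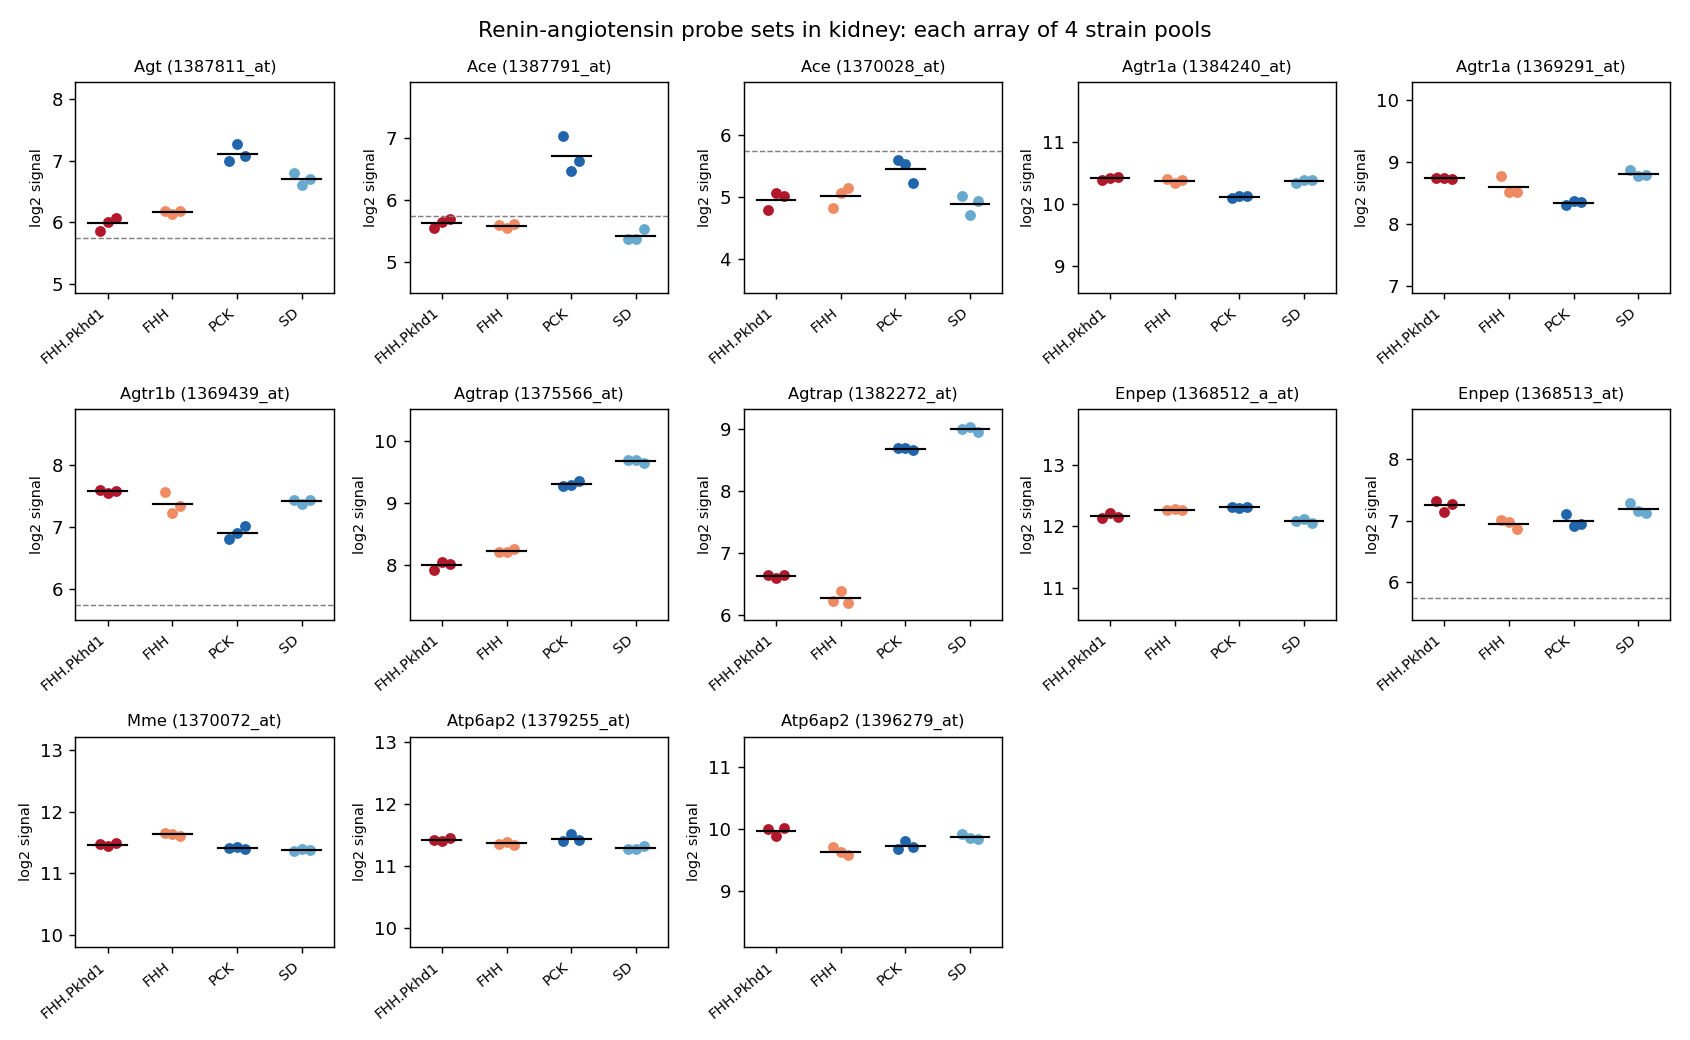
Log2 signal of the 13 probe sets on each array (points) with the mean of each pool (black bars), in the order FHH.Pkhd1, FHH, PCK and SD. All panels span the same number of log2 units, and the dashed line marks the detection level of 5.75. Both Agtrap probe sets separate the FHH-background pools from PCK and SD. The tested Ace probe set stands apart in PCK, and Enpep, Mme and Atp6ap2 lie nearly level.

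Agtrap encodes a small membrane protein that binds the type 1 receptor and is known to promote its internalisation and to dampen its signalling. It showed the widest differences of the 8 genes and separated the pools by background. The first probe set, 1375566_at, read 7.92, 8.05 and 8.01 on FHH.Pkhd1 arrays, 8.21, 8.21 and 8.25 on FHH arrays, 9.28, 9.29 and 9.35 on PCK arrays, and 9.69, 9.70 and 9.64 on SD arrays. No array of any pool overlapped with those of the next pool in the order SD, PCK, FHH, FHH.Pkhd1. Repeated arrays of 1 pool scatter little, so a lack of overlap here and below does not by itself mark a wide difference. For Enpep 1368512_a_at, arrays of PCK and FHH did not overlap at a difference of 0.05. The FHH pool was 2.73-fold lower than SD (log2 difference -1.45 ± 0.04, SE, limma adjusted p = 2.97e-10). The FHH.Pkhd1 pool was 2.48-fold lower than PCK (-1.31 ± 0.04, limma adjusted p = 3.36e-10). In bulk RNA, fewer cells that express a gene and less of its RNA per cell cannot be told apart.

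The second Agtrap probe set, 1382272_at, gave wider differences in the same direction. It read 6.64, 6.59 and 6.65 on FHH.Pkhd1 arrays, 6.23, 6.38 and 6.2 on FHH arrays, 8.69, 8.69 and 8.66 on PCK arrays, and 9.0, 9.04 and 8.95 on SD arrays. The FHH pool was 6.62-fold lower than SD (-2.73 ± 0.05, SE, limma adjusted p = 2.19e-12), and the FHH.Pkhd1 pool was 4.17-fold lower than PCK (-2.06 ± 0.05, limma adjusted p = 2.09e-11). The probe sets therefore gave the same order of the backgrounds but not the same size. They also placed the FHH-background pools in opposite orders, with FHH.Pkhd1 minus FHH at -0.23 ± 0.04 for the first (limma adjusted p = 0.00275) and 0.35 ± 0.05 for the second (limma adjusted p = 0.000319), neither of them 1.5-fold. PCK minus SD was -0.37 ± 0.04 and -0.31 ± 0.05, also under 1.5-fold. Probe sequences are not used here, and whether sequence variants between strains touch the probes was not tested. The means of the adrenal and fat marker lists, given above, were higher in both FHH-background pools. Not every marker followed. The fat marker Cidec was at 7.93 in FHH.Pkhd1 and 8.39 in FHH, against 8.51 in PCK and 8.61 in SD. The part of these markers in the Agtrap difference was not tested.

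Agtrap lies on chromosome 5, away from the congenic segment on chromosome 9, and none of the 8 genes lies on chromosome 9. The 5 measured genes on either side of it in the GRCr8 gene order were read as a description chosen after their values were seen. None of the 10 was called by limma in FHH minus SD, where they ran from -0.24 (Fbxo6, a ubiquitin ligase subunit) to 0.20, with 5 at an unadjusted p under 0.05. None was called in FHH.Pkhd1 minus PCK either, where they ran from -0.30 (Fbxo6) to 0.31 (Clcn6, a chloride-proton exchanger), with 4 at an unadjusted p under 0.05. Of these 11 measured genes Agtrap alone was called, as the plot in gene order shows. Genes without a tested probe set were passed over in this order. Of all genes, 3.31% were called in FHH minus SD and 5.83% in FHH.Pkhd1 minus PCK. At these shares 10 genes can hold no call, so their lack of calls is a description only.

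**Figure D2:**
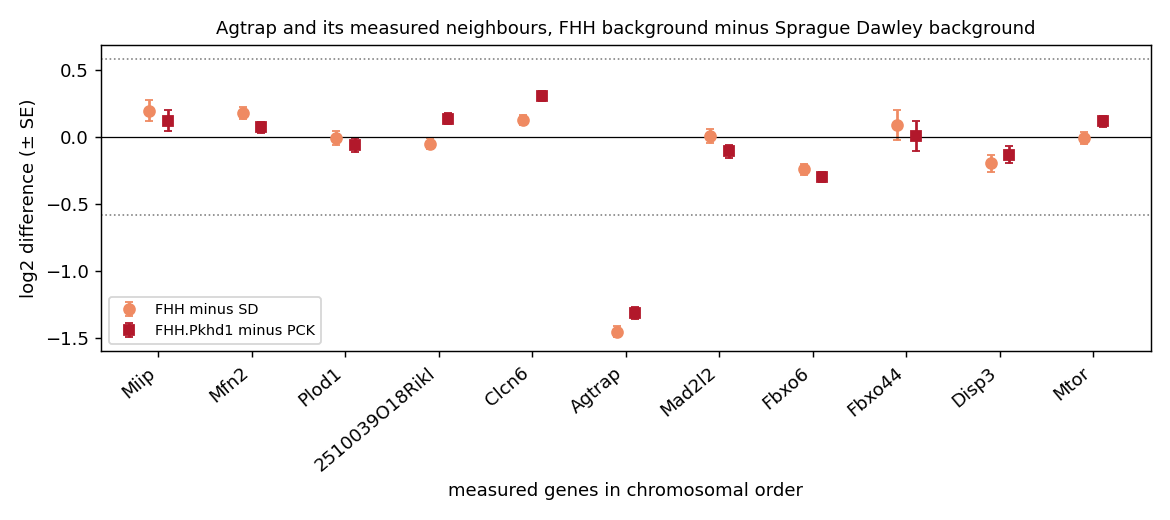
Log2 difference (± SE, technical replicates of 1 pool per strain) of Agtrap and the 5 measured genes on either side of it in chromosomal order, for FHH minus SD (circles) and FHH.Pkhd1 minus PCK (squares). Dotted lines mark 1.5-fold. Agtrap stands at -1.45 and -1.31, and the 10 neighbours lie between -0.30 and 0.31.

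The 250 bases before the annotated start of Agtrap are shown because this gene carries the widest difference between backgrounds. They are the RefSeq reference sequence of GRCr8 at chr5:163802175-163802424, minus strand, from the BN rat and not from any of these strains. Capitals mark matches on either strand to 4 promoter motifs, whose matches may overlap. They are the E-box with the letters CACGTG, the box with the letters CCAAT, the GC box with the letters GGGCGG, and the TATA box with the letters TATAAA. A match on the other strand appears as its reverse complement.
Agtrap: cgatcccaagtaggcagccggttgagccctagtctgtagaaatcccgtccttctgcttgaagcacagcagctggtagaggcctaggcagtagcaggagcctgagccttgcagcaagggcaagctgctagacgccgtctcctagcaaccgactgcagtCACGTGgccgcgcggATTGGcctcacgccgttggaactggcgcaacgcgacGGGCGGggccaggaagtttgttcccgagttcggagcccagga
The window held an E-box at base -93, a CCAAT box at -78 and a GC box at -42, counted back from the start, and no match to TATAAA. Of 27457 windows of the same length before annotated rat genes, 5.79% held the E-box letters, 34.3% the CCAAT box, 32.4% the GC box and 13.1% the TATA box. Among the 7 genes of the set with a window, 1 held the E-box letters. These matches describe the letters only.

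Agt encodes angiotensinogen, the precursor of all angiotensin peptides. Its probe set read 5.86, 6.01 and 6.08 on FHH.Pkhd1 arrays, 6.18, 6.14 and 6.18 on FHH arrays, 7.0, 7.27 and 7.07 on PCK arrays, and 6.80, 6.60 and 6.71 on SD arrays. The order was PCK, SD, FHH, FHH.Pkhd1, and no neighbouring pools overlapped, which repeated arrays of 1 pool can also show at small differences. The FHH.Pkhd1 pool was 2.18-fold lower than PCK (-1.13 ± 0.08, SE, limma adjusted p = 2.08e-07). FHH minus SD was -0.53 ± 0.08 (limma adjusted p = 0.000208), just short of 1.5-fold, and it passed that limit without SD replicate 2 (-0.59). PCK minus SD was 0.41 ± 0.08 and FHH.Pkhd1 minus FHH was -0.18 ± 0.08, both short of 1.5-fold. The liver is the main source of circulating angiotensinogen, and the 9 liver markers had a mean of 6.93 to 7.09 on FHH.Pkhd1 arrays, 6.68 to 6.74 on FHH arrays, 6.27 to 6.32 on PCK arrays and 6.22 to 6.28 on SD arrays. Single liver markers did not share 1 order of the pools: in PCK minus SD, albumin (Alb) stood at -2.05 and the fibrinogen chain Fga at 1.05, both called. The part of liver markers in the Agt difference was not tested.

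Ace encodes the converting enzyme, found on endothelium and on the proximal tubule brush border. Its tested probe set, 1387791_at, read 5.55, 5.64 and 5.69 on FHH.Pkhd1 arrays, 5.60, 5.55 and 5.62 on FHH arrays, 7.04, 6.47 and 6.63 on PCK arrays, and 5.37, 5.38 and 5.53 on SD arrays. Only PCK was above the detection level, so Ace entered the test through the pool where it is high and had to differ there. Its calls are therefore a description, and only a lower bound of the difference is given, with the other pools set at the detection level. Its PCK arrays were also spread over 0.57, more than those of any other pool for this probe set. PCK was at least 1.95-fold higher than SD by that bound (limma adjusted p = 3.08e-06 on the measured values). FHH.Pkhd1 was at least 1.95-fold lower than PCK (limma adjusted p = 7.31e-06 on the measured values). No difference is given among FHH.Pkhd1, FHH and SD, which were all below the detection level.

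The second Ace probe set, 1370028_at, was below the detection level everywhere, at 4.96 ± 0.15 in FHH.Pkhd1, 5.01 ± 0.17 in FHH, 5.45 ± 0.20 in PCK and 4.89 ± 0.16 in SD (n = 3 arrays of 1 pool). PCK had the highest mean, but with every pool below the detection level this order is not read as a difference. Of 8 tested endothelial markers, 1 was called higher in PCK than in SD, von Willebrand factor (Vwf, 0.76), against 3.11% of all genes. The median of the 8 was 0.11. Of 15 proximal tubule markers limma called none in PCK minus SD, against 3.11% of all genes, with 11 at an unadjusted p under 0.05. The 15 had a median of 0.09, with Mep1b, a brush border metalloprotease, at 0.54. Of 6 tested tubule injury markers, 3 were called higher in PCK minus SD, against 3.11% of all genes, with Havcr1, kidney injury molecule 1, at 3.15 and Clu, clusterin, at 1.55. In FHH.Pkhd1 minus PCK 5 of these 6 were called lower, against 5.83% of all genes called, with Havcr1 at -3.18. Havcr1 was also called, at 0.90, in FHH minus SD and, at a value of -0.93, for FHH.Pkhd1 minus FHH, where Ace was below the detection level in both pools. The part of these markers in the Ace difference was not tested.

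The window before Ace, at chr10:91409879-91410128 on the plus strand of GRCr8, is shown because Ace was the 1 gene of the set called between PCK and SD.
Ace: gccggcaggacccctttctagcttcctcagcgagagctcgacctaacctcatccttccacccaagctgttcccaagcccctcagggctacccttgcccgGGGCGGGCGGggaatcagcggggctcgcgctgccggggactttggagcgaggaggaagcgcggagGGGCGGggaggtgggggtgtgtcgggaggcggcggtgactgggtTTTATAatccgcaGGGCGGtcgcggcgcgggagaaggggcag
Capitals mark the same motifs. It held 4 GC boxes, 2 of which overlap, and 1 match to TATAAA on the other strand at base -42.

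Agtr1a and Agtr1b encode the type 1 receptors through which angiotensin II acts. Their proteins and coding sequences are close to each other, so signal from one may reach the other's probe set, and the values are uncertain to that extent. The first Agtr1a probe set, 1384240_at, read 10.39, 10.42 and 10.43 on FHH.Pkhd1 arrays, 10.40, 10.34 and 10.38 on FHH arrays, 10.10, 10.13 and 10.12 on PCK arrays, and 10.34, 10.38 and 10.38 on SD arrays. PCK lay below the other pools, which overlapped with their neighbours in the order. PCK minus SD was -0.25 ± 0.03 (SE, limma adjusted p = 0.000135), and FHH.Pkhd1 minus PCK was 0.30 ± 0.03. The second probe set, 1369291_at, had PCK lowest too, at 8.35 ± 0.03 against 8.82 ± 0.05 in SD (-0.47 ± 0.06, SE, limma adjusted p = 0.00011). It stood at 8.74 ± 0.01 in FHH.Pkhd1, which set against PCK gave 0.39 ± 0.06 (SE). None of these reached 1.5-fold.

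Agtr1b read 7.60, 7.55 and 7.58 on FHH.Pkhd1 arrays, 7.57, 7.22 and 7.34 on FHH arrays, 6.80, 6.90 and 7.01 on PCK arrays, and 7.43, 7.38 and 7.44 on SD arrays. PCK was again the lowest pool, and FHH and SD overlapped. The FHH.Pkhd1 pool was 1.6-fold higher than PCK (0.68 ± 0.08, SE, limma adjusted p = 1.88e-05), the only receptor difference called between pools. PCK minus SD was -0.52 ± 0.08 (limma adjusted p = 0.000281), short of 1.5-fold, and FHH minus SD was -0.04 ± 0.08. Adrenal tissue expresses this receptor, and in FHH.Pkhd1 minus PCK all 4 tested adrenal markers were called higher, against 5.83% of all genes called. The steroidogenic enzyme Hsd3b1 stood at 3.49. In FHH minus SD, 3 of these 4 were also called higher, against 3.31% of all genes called, with Hsd3b1 at 2.42. In PCK minus SD limma called none of the 4, against 3.11% of all genes, with 0 at an unadjusted p under 0.05. The widest, Cyp21a1, stood at 0.22 and was the 1 positive difference, with Cyp11a1, the side-chain cleavage enzyme, at -0.16. The part of these markers in the Agtr1b difference was not tested.

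The windows before Agtr1a (chr17:34435433-34435682, minus strand) and Agtr1b (chr2:104849263-104849512, minus strand) of GRCr8 are shown because the receptor pair had its lowest pool in common, PCK.
Agtr1a: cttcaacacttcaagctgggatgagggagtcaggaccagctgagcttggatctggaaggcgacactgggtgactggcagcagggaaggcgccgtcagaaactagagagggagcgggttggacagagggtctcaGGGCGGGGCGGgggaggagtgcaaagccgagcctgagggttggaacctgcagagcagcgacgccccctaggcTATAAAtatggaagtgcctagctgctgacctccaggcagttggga
Agtr1b: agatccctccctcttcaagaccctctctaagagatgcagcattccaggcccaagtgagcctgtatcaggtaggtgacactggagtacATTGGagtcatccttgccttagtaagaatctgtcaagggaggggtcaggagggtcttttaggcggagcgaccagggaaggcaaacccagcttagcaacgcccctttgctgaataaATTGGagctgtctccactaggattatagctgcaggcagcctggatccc
Agtr1a held 2 overlapping GC boxes and 1 TATAAA match at base -45. Agtr1b held 2 CCAAT boxes on the other strand and none of the other motifs.

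Enpep, aminopeptidase A, removes the first residue of angiotensin II, and Mme, neprilysin, cuts angiotensin I to shorter peptides. Both are abundant on the proximal tubule brush border, and neither was called in any comparison. The first Enpep probe set, 1368512_a_at, was at 12.17 ± 0.05 in FHH.Pkhd1, 12.26 ± 0.01 in FHH, 12.31 ± 0.01 in PCK and 12.09 ± 0.03 in SD (n = 3 arrays of 1 pool). Its widest difference, PCK minus SD, was 0.22 ± 0.04 (SE, limma adjusted p = 0.000551). The second, 1368513_at, ran the other way in all 4 comparisons, from -0.24 ± 0.07 in FHH minus SD to 0.30 ± 0.07 in FHH.Pkhd1 minus FHH. Enpep therefore had no direction that its probe sets shared.

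Mme read 11.48, 11.44 and 11.49 on FHH.Pkhd1 arrays, 11.65, 11.64 and 11.61 on FHH arrays, 11.41, 11.42 and 11.40 on PCK arrays, and 11.37, 11.40 and 11.38 on SD arrays. FHH was the highest pool, with no overlap. FHH minus SD was 0.25 ± 0.03 (SE, limma adjusted p = 0.000126) and FHH.Pkhd1 minus FHH was -0.17 ± 0.03 (limma adjusted p = 0.0036), both under 1.5-fold. Podocytes carry Mme as well, and their 9 tested markers had a median of 0.17 in FHH minus SD. Limma called none of the 9, against 3.31% of all genes, with 4 at an unadjusted p under 0.05.

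Atp6ap2 encodes the prorenin receptor, which is also an accessory subunit of the vacuolar proton pump. Its first probe set, 1379255_at, had the closest pool means of the 13, at 11.42 ± 0.03 in FHH.Pkhd1, 11.36 ± 0.03 in FHH, 11.44 ± 0.06 in PCK and 11.29 ± 0.03 in SD (n = 3 arrays of 1 pool). The second, 1396279_at, was at 9.96 ± 0.07 in FHH.Pkhd1 against 9.63 ± 0.07 in FHH (0.33 ± 0.05, SE, limma adjusted p = 0.000979). The same 2 groups differed by 0.06 ± 0.04 in the first. Neither probe set was called in any comparison. Of 19 other pump subunits, each read by its brightest probe set, limma called none in any comparison, against 1.27% to 5.83% of all genes. In the 4 comparisons of pools 9 to 11 of the 19 had an unadjusted p under 0.05. Their medians ran from 0.01 in PCK minus SD to 0.13 in FHH.Pkhd1 minus PCK, and the widest among these probe sets was 0.46 for Atp6v1g3, a subunit of intercalated cells, in PCK minus SD. A dimmer probe set of the subunit Atp6v0a2 was called in FHH.Pkhd1 minus PCK (0.73).

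**Figure D3:**
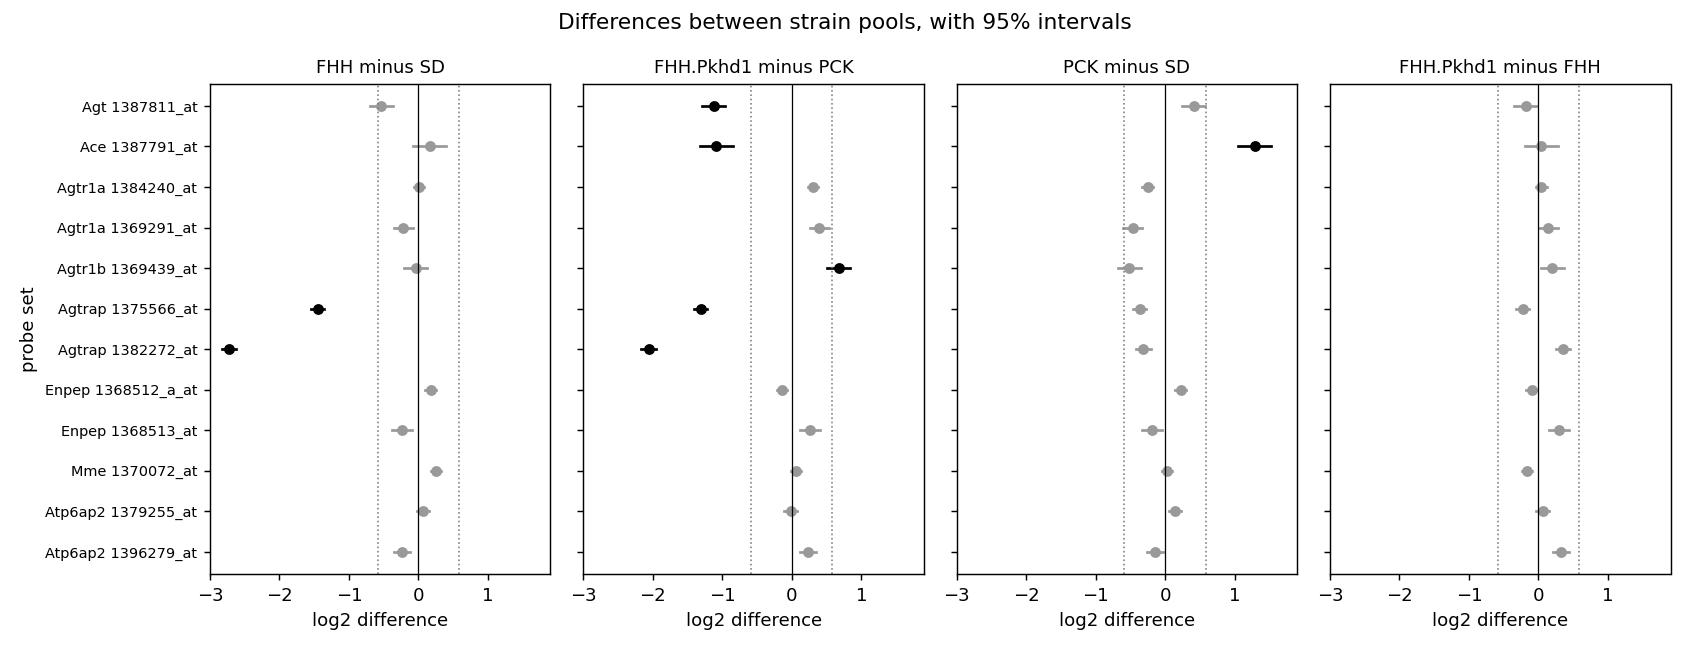
Log2 difference of the 12 tested probe sets in the 4 comparisons of pools, with 95% intervals from limma that cover array spread only. Black marks called probe sets, grey the others, and dotted lines mark 1.5-fold. Agtrap is called lower in both comparisons of backgrounds, and no probe set is called in FHH.Pkhd1 minus FHH.

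The design also asks whether the difference that goes with the PCK-derived Pkhd1 segment depends on the background. PCK and SD may differ at loci outside that segment as well. The differences of PCK from SD and of FHH.Pkhd1 from FHH have no array in common, and their difference, the PCK one minus the FHH.Pkhd1 one, was tested as an interaction. It was called for 5 of the 12 probe sets, 2 positive and 3 negative, where 6.44% of all tested probe sets were called. One of the 5 was Ace, for which no size is read here because 3 of its 4 pools were below the detection level. Its call also follows in part from the filter, which Ace passed through PCK alone. Agtr1b differed by -0.52 between PCK and SD and by 0.20 between FHH.Pkhd1 and FHH, an interaction of -0.72 ± 0.11 (SE, limma adjusted p = 0.000409). The interaction was also called for 4 of 6 injury markers, all positive, and for 3 of 4 adrenal markers, all negative, with Hsd3b1 at -1.08. Of 6 listed red cell markers 4 were tested, and it was called for all 4, all negative, with Alas2 at -1.21, where 5.01% of all genes were called. These did not share 1 pattern: Alas2 stood at -1.13 in PCK minus SD and 0.08 for FHH.Pkhd1 minus FHH, and Slc4a1 at 0.04 and 0.65. The part of these markers in the members' interactions was not tested.

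The second Agtr1a probe set, 1369291_at, stood at -0.47 for PCK against SD and at 0.14 for FHH.Pkhd1 against FHH, an interaction of -0.61 ± 0.09 (SE, limma adjusted p = 0.000268). The first had -0.25 and 0.04, an interaction of -0.29 ± 0.05 that was under 1.5-fold. Agt had 0.41 and -0.18, an interaction of 0.59 ± 0.11 (limma adjusted p = 0.00142). The calls of Agt and of 1369291_at lie at the edge of the fold limit. That of Agt was lost without FHH.Pkhd1 replicate 1 (0.53), FHH replicate 1 (0.58), PCK replicate 2 (0.52) or SD replicate 2 (0.54). That of 1369291_at was lost without FHH replicate 2 (-0.57), FHH replicate 3 (-0.57) or SD replicate 1 (-0.58), and with arrays centred on their medians (-0.58). Agtrap was called by 1382272_at alone (-0.67 ± 0.07), where 1375566_at gave -0.14 ± 0.06 (limma adjusted p = 0.106).

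**Figure D4:**
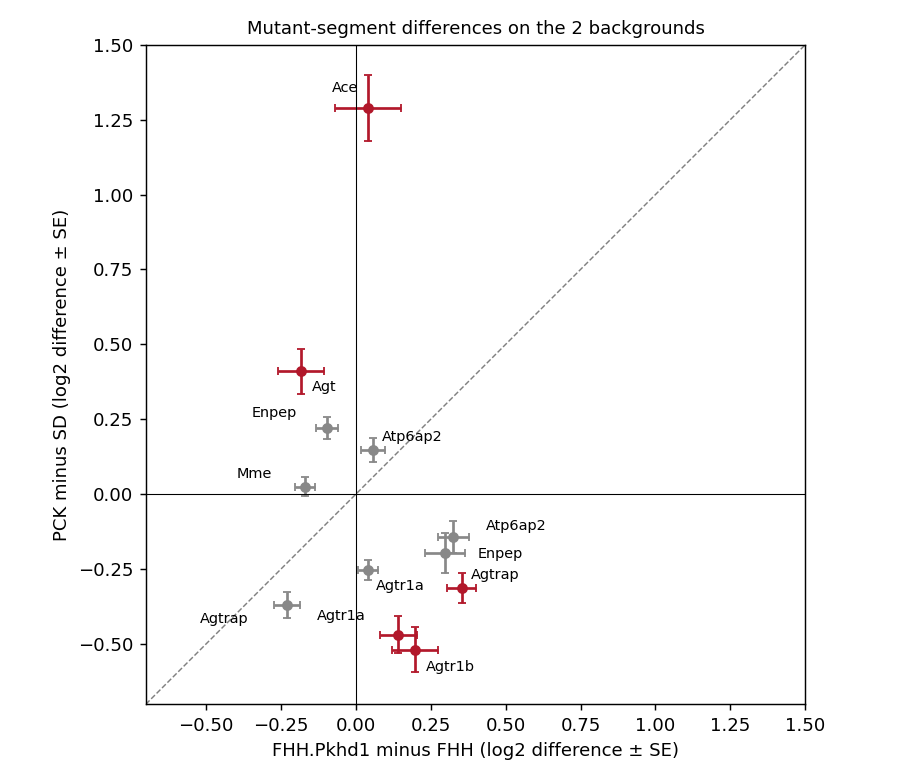
PCK minus SD against FHH.Pkhd1 minus FHH for the 12 tested probe sets, as log2 differences ± SE over arrays of 1 pool per strain. Points on the dashed line would have equal differences on both backgrounds, and red marks a called interaction. Agt and Ace lie above the line, Ace from 3 pools below the detection level, and Agtr1b lies below it at -0.52 against 0.20.

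The other genes of the cascade were taken from a list of 24, of which 17 had a probe set and 9 were tested. In this and the following lists each gene is counted by its brightest probe set. In FHH minus SD 1 of 9 was called, lower, against 3.31% of all tested genes, and the median was -0.11 against 0.04 for all genes. It was Prep, prolyl endopeptidase, which can form angiotensin 1-7 (-0.64 ± 0.05, SE, limma adjusted p = 9.81e-07). In FHH.Pkhd1 minus PCK 1 of 9 was called, lower, against 5.83% of all genes, and the median was -0.03 against 0.06 for all genes. It was Anpep, aminopeptidase N, also counted among the brush border markers, which cuts angiotensin III (-0.71 ± 0.04, limma adjusted p = 5.43e-08). In PCK minus SD 2 of 9 were called, both lower, against 3.11% of all genes, and the median was -0.07 against 0.00. They were Prep (-0.93 ± 0.05) and Klk1, tissue kallikrein, which forms kinins (-0.62 ± 0.05). In FHH.Pkhd1 minus FHH limma called none, with 4 at an unadjusted p under 0.05, a median of 0.02 against 0.01, and Prep (-0.42 ± 0.05) and Cpn1, a kinin-degrading carboxypeptidase subunit (-0.38 ± 0.04), widest. The type 2 receptor Agtr2, the Mas1 receptor and the mast cell chymase Cma1 were below the detection level in all 4 pools.

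Of 27 tested genes of type 1 receptor signalling, limma called none in FHH minus SD, PCK minus SD or FHH.Pkhd1 minus FHH, with 9, 8 and 8 at an unadjusted p under 0.05. In FHH.Pkhd1 minus PCK 3 rose, against 5.83% of all genes called, and the median was 0.11 against 0.06 for all genes. They were Rgs5, a pericyte regulator of G protein signalling (0.88 ± 0.05, SE, limma adjusted p = 9.29e-08), the NADPH oxidase Nox4 (0.64 ± 0.05) and the G protein subunit Gna11 (0.61 ± 0.08). Those of Gna11 and Nox4 were lost when arrays were centred on their medians (0.53 and 0.56), and that of Gna11 also with quantile normalization (0.53) and without FHH.Pkhd1 replicate 3 (0.56) or PCK replicate 2 (0.56). Among dimmer probe sets of these genes, that of Cybb, an NADPH oxidase subunit of phagocytes, was called lower in FHH minus SD (-0.59), and that of Rgs2, another regulator of G protein signalling, was called higher in FHH.Pkhd1 minus PCK (0.68). Smooth muscle and mesangial markers stood at a median of 0.12 in that comparison, with Myh11, smooth muscle myosin, called at 0.68, and their part in the Rgs5 difference was not tested.

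Of 14 tested genes that control renin release, Creb1, a cAMP-responsive transcription factor, fell in FHH minus SD (-0.95 ± 0.10) and in PCK minus SD (-1.13 ± 0.10), comparisons that share the SD arrays. Creb1 has 4 probe sets, of which only the brightest was tested. It lies on chromosome 9, as the congenic segment does, and whether it lies within that segment was not tested. In FHH minus SD 1 of the 14 was called, against 3.31% of all genes, and in PCK minus SD 2, against 3.11%. Of 6 listed red cell markers 4 were tested, and 3 were called lower in each comparison. Alas2, the first enzyme of haem synthesis in red cells, stood at -1.21 in FHH minus SD and -1.13 in PCK minus SD. The fourth, Slc4a1, did not follow the other 3 and stood at -0.11 and 0.04, and it is part of the mean given next. The mean of the 4 red cell markers was 9.07 to 9.14 on FHH.Pkhd1 arrays, 8.81 to 8.90 on FHH arrays, 8.78 to 8.86 on PCK arrays and 9.70 to 9.83 on SD arrays, and their part in the Creb1 difference was not tested. Ptgs2, the cyclooxygenase of the macula densa, read 9.26 in FHH.Pkhd1, 9.28 in FHH, 8.47 in PCK and 9.34 in SD. It was lower in PCK than in SD (-0.87 ± 0.05, SE, limma adjusted p = 1.26e-07) and higher in FHH.Pkhd1 than in PCK (0.79 ± 0.05). The oxysterol receptor Nr1h3 fell in FHH.Pkhd1 minus PCK (-0.62 ± 0.05), but was not called without FHH.Pkhd1 replicate 2 (-0.58). A dimmer probe set of Gnas, the G protein subunit that raises cAMP, was called in FHH.Pkhd1 minus PCK (0.64), where 2 of the 14 genes were called by their brightest probe set, against 5.83% of all genes. In FHH.Pkhd1 minus FHH limma called none of the 14, with 4 at an unadjusted p under 0.05. The medians of the list were -0.04 in FHH minus SD, 0.06 in FHH.Pkhd1 minus PCK, 0.04 in FHH.Pkhd1 minus FHH and 0.01 in PCK minus SD.

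Downstream of aldosterone, 11 mineralocorticoid pathway genes were tested and 1 rose, the sodium channel subunit Scnn1a in FHH.Pkhd1 minus FHH (0.85 ± 0.08, SE, limma adjusted p = 1.57e-05), a comparison in which 1.27% of all genes were called. Limma called none of the 11 in the other 3 comparisons of pools, each with 7 at an unadjusted p under 0.05. The medians were 0.17 in FHH minus SD, 0.23 in FHH.Pkhd1 minus PCK, 0.19 in FHH.Pkhd1 minus FHH and 0.12 in PCK minus SD, where those of all genes were 0.04, 0.06, 0.01 and 0.00. The mineralocorticoid receptor Nr3c2 stood at 0.40 ± 0.08 in FHH minus SD and the sodium channel subunit Scnn1b at 0.44 ± 0.05 in PCK minus SD, both short of 1.5-fold.

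By the brightest probe set of each gene, the interaction was called for 1 of the 9 other cascade genes, Klk1 (-0.68 ± 0.06, SE), for 1 of the 27 signalling genes, Rgs5 (-0.95 ± 0.08), and for 2 of the 14 genes of renin release, Creb1 (-1.34) and Ptgs2 (-0.84), against 5.01% of all genes. Limma called none of the 11 mineralocorticoid pathway genes, with 3 at an unadjusted p under 0.05, and none of the 19 pump subunits, with 6. A dimmer probe set of Rhoa, a small GTPase of the signalling list, was also called (-0.72).

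The genes most like the 3 widest members were found by Pearson's r over the 12 arrays, among 1064 tested genes whose pool means spanned at least 1.5-fold. The arrays of a pool share their RNA, so r mostly compares 4 pool means and is given as a description. Agtrap was most like Slc23a1, a vitamin C transporter (r = 0.9964), which was at 8.87 in FHH.Pkhd1, 9.01 in FHH, 9.52 in PCK and 9.64 in SD. LOC102550354 (r = 0.9944) and Lancl1 (r = 0.9913) followed. Ace was most like Serping1, the C1 inhibitor (r = 0.9794), which was highest in PCK, at 11.04 against 9.69 in SD, followed by Serpina10 (r = 0.9652) and Ccdc77 (r = 0.9613). Agt was most like the kinase Nek6 (r = 0.9831), the pyrophosphatase Enpp1 (r = 0.9806) and Slc6a13, a GABA transporter (r = 0.9782).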

How the data were processed

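Expression was measured on Affymetrix rat gene expression arrays from 4 strain pools of 6 animals each, 3 arrays per pool. The authors deposited log2 signals, 1 per probe set. The submitters' processing notes name RMA and Partek 6.2 without their order, and cRNA was made from 100 ng of RNA, per the labels' protocols. Values ran from 2.38 to 14.41 and were used without further normalization. Of 31099 probe sets, 57 control probe sets were left out. Of the other 31042, 20826 carried a single symbol, 436 several and 9780 none, from an array annotation that can be old. Gene IDs of 20764 matched RefSeq records of GRCr8, used for names, chromosome and gene order.

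Probe sets whose highest pool mean reached 5.75 were tested (19359, of which 10891 are the brightest of their gene) with limma 3.58.1 in R 4.3.3, with 1 mean per strain over all 12 arrays and eBayes moderation (prior degrees of freedom 3.77, residual 8). The Benjamini-Hochberg adjustment ran over all 19359. Lists were counted on the brightest probe set of each gene. The procedure was tested on simulated data. The number of arrays limits the precision. Members and lists were chosen with earlier results of these data known. All probe sets of the members were described. From each pathway list up to 4 called genes per comparison were to be named, or the 2 widest where none was called, from each marker list up to 2, and the 3 genes most like each of the 3 widest members. Alternatives covered the filter, features tested, normalization, variance model, arrays, replicate block, fold limit and leaving out each array. Replicate numbers name technical replicates and were not used to pair arrays in the main fit. Of 18 same-numbered pairs across pools, 6 had a correlation of deviations over 0.1, and the median was -0.01. Of 36 pairs with different numbers, 14 were over 0.1. Same-numbered pairs ran from -0.33 (FHH and PCK, array 1) to 0.35 (FHH and SD, array 1). Whether arrays of different pools shared a processing order was not tested. Figures were drawn with matplotlib 3.10.9.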

Additional observations from a re-analysis of the deposited data

Results flagged for a closer look

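For 5 probe sets the difference between PCK and SD was unlike that between FHH.Pkhd1 and FHH by the limma test of the interaction. The interaction was 1.25 for Ace (1387791_at), 0.59 for Agt (1387811_at), -0.61 for Agtr1a (1369291_at), -0.72 for Agtr1b (1369439_at) and -0.67 for Agtrap (1382272_at), on the log2 scale. The second tested probe sets of Agtr1a and Agtrap gave -0.29 and -0.14 and were not called. The pools also differed along this contrast in the 3' over 5' excess of beta-actin and in the poly-A spike-in signal. The part of these 2 controls was not tested. For Ace 3 of the 4 pools were below the detection level, so that the size of its interaction is not fixed by these values. Ace passed the filter through PCK alone, so its call follows from the filter in part and is a description.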

How the results depend on the processing

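Counts of called renin-angiotensin probe sets moved by over 1.5 times in 13 of 119 recomputations. With detection at the 60th percentile, which drops Agt and Ace, the counts were 3 in FHH.Pkhd1 minus PCK, 0 in PCK minus SD and 3 for the interaction. With 1 probe set per gene, or with the mean of a gene's probe sets, FHH minus SD had 1 and the interaction 3, since fewer features were counted. With no fold limit the counts were 8 in FHH minus SD, 5 for FHH.Pkhd1 minus FHH, 10 in FHH.Pkhd1 minus PCK, 10 in PCK minus SD and 10 for the interaction, and with a 2-fold limit the interaction had 1. Over all tested probe sets 4061 to 10017 were called without the fold limit, against 368 to 1337 with it. Leaving out 1 array in turn gave 2 to 3 in FHH minus SD, 0 to 0 for FHH.Pkhd1 minus FHH, 5 to 5 in FHH.Pkhd1 minus PCK, 1 to 1 in PCK minus SD and 4 to 5 for the interaction. With the replicate number as a block the counts were 2, 0, 5, 1 and 5 in that order, as without the block.

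Of 1258 recomputed member differences 16 turned direction, and none of those was called. With the mean of probe sets, Enpep became -0.0302 in FHH minus SD, 0.0575 in FHH.Pkhd1 minus PCK, 0.10 in FHH.Pkhd1 minus FHH and -0.0878 for the interaction. Atp6ap2 then became -0.0828 in FHH minus SD, 0.11 in FHH.Pkhd1 minus PCK and -0.19 for the interaction, Agtr1a -0.11 in FHH minus SD and Agtrap 0.0626 in FHH.Pkhd1 minus FHH. Agtr1a 1384240_at in FHH minus SD became -0.0111 with quantile normalization and -0.0434 with median centring, -0.0081 without FHH replicate 1 and -0.0049 without SD replicate 1, with 0.0236 as the highest value when 1 array was left out. Mme became -0.0233 in FHH.Pkhd1 minus PCK with median centring. Leaving out 1 array gave Agtr1b in FHH minus SD values of -0.1352 to 0.0383 (without FHH replicate 2), and Atp6ap2 1379255_at in FHH.Pkhd1 minus PCK values of -0.0375 to 0.0141 (without PCK replicate 2). The Agtr1a 1369291_at interaction was -0.58 and not called with median centring. Why these values turned was not tested. The same settings, added after seeing the data, were run for the genes named from lists, and 0 of 2678 recomputed differences turned direction.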
